A study of Mus musculus with 9 samples.

Results

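CD8 T cells that had taken up mitochondria from stromal cells were compared with CD8 T cells of the same co-cultures that had not. The T cells were splenic and came from Pmel Ly5.1 mice, a cross in which the T cells carry a transgenic receptor for a melanocyte antigen and a congenic leukocyte marker. By the treatment protocol they were kept for 36 h with DM5, a bone marrow stromal line of BL6 origin that had been immortalized and whose mitochondria were labelled with DsRed, a red fluorescent protein. Cells were then sorted on DsRed into positive cells (MitoPositive, 3 libraries lettered B, C and D) and negative cells (MitoNegative, 3 libraries with the same letters). These 6 of the 9 libraries of the study are the members of the comparison; the other 3, from T cells kept without stromal cells (monoculture), are given only as levels. The library titles carry "0hr" as well, and how that relates to the 36 h is not stated. Stimulation of the T cells, the age of the mice and what a letter stands for are not given in the labels. DM5 is a single line, so donor mitochondria and stromal cells are the same in each pair.

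Cells can pass whole mitochondria to one another through tunnelling nanotubes, thin membrane bridges built on actin that motor proteins use as tracks. In a CD8 T cell, activation switches the cell from a resting programme, kept by the transcription factors Tcf7, Klf2 and Myb, to a programme of growth, division and killing that draws on glycolysis and mitochondrial respiration. Prdm1, Zeb2 and the receptor for interleukin 2 mark the effector side of that switch. The comparison therefore asks which of these programmes separate cells that hold DsRed from DsRed-negative cells of the same co-culture. Whether both fractions had the same contact with stromal cells is not given in the labels.

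Total RNA depleted of ribosomal RNA was sequenced, and the 6 libraries held 53546152 to 74722832 counts. Levels are CPM, read counts scaled to a common depth, with library sizes scaled by trimmed mean of M-values. Defining genes of CD8 T cells were high in the 6 libraries: Cd8a stood at 1289, 1189 and 1157 CPM in the MitoPositive and 1328, 1307 and 1194 CPM in the MitoNegative libraries (log2 fold change -0.07 ± 0.04, adjusted p = 0.18), and Ptprc, the pan-leukocyte CD45, at 2484, 2344 and 2279 CPM in the MitoPositive and 2262, 2244 and 2272 CPM in the MitoNegative libraries (0.07 ± 0.04, adjusted p = 0.26). Cd4 lay between 0.633 and 1.53 CPM. The first principal component of the 6 libraries held 33.8% of the variance and separated the letters rather than the sorted fractions, with B at -19.5 and -24.2, C at -3.67 and -4.51, and D at 26.7 and 25.2. Letters were therefore used as pairs, a choice that decides how many genes are called.

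Transcripts of other cell types were present at low levels. The summed level of 38 stromal markers, leaving out the T-cell gene Thy1, was 52.1, 67.6 and 25.6 CPM in MitoPositive B, C and D, 58.4, 68.7 and 27.0 CPM in MitoNegative, and 7.17 ± 0.495 CPM in monoculture (SD, n = 3). Taken without the letters, these sums did not separate the fractions (exact two-sided permutation test, p = 0.7, with 0.1 the smallest p that 3 against 3 allows). The permutation tests of such sums did not use the letters as pairs. Within letters the stromal sum was lower in MitoPositive in each of the 3 pairs. B-cell markers summed to 289, 321 and 327 CPM in MitoPositive and to 438, 482 and 383 CPM in MitoNegative, so the groups did not overlap (exact permutation p = 0.1). Most of that sum was Ighm, the heavy chain of immunoglobulin M. Without Ighm the other 17 markers summed to 30.2, 43.9 and 49.97 CPM in MitoPositive and to 37.3, 57.3 and 42.9 CPM in MitoNegative, so the groups overlapped and MitoPositive was the higher in pair D. Of the 18 markers 2 fell and 0 rose. Natural killer markers summed to 204, 195 and 171 CPM against 257, 232 and 202 CPM (exact permutation p = 0.2); Klrk1, which CD8 T cells express as well, gave most of it, and the natural killer gene Ncr1 was at 0 to 0.205 CPM. In bulk RNA, fewer cells of a type and less RNA per cell cannot be told apart.

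With letters as pairs, 2810 of 15431 genes tested passed an adjusted p of 0.05 (18.2%), 1530 of them higher in MitoPositive (9.92%) and 1280 lower (8.29%). In the following, "rose" and "fell" refer to MitoPositive against MitoNegative in this test. Values after ± beside a log2 fold change are standard errors derived from its F statistic. The spread behind them is partly shared across genes, so they are not the spread of the 3 pairs alone. Most of the differences were small: the median fold of called genes was 1.15, 1839 of them changed by less than 1.2-fold, 291 by more than 1.5-fold and 70 by more than 2-fold. Of the 2810 genes, 938 (6.08% of those tested) were also called when pair B, pair C or pair D was left out (489 higher, 3.17%, and 449 lower, 2.91%); the count was 1468 without B, 1335 without C and 3197 without D. The number depends on pairing and on which libraries set the spread: 367 genes (2.34%) passed with all 9 libraries and the pairs, 65 (0.421%) with the 6 libraries unpaired, and 201 (1.3%) against a fold of 1.2. A call is said below to hold where it passed in each of the 3 fits that leave out a pair. Those fits have fewer libraries and lean more on the spread shared across genes. Without any test, the groups did not overlap in 20.2% of genes tested, 11.1% higher and 9.07% lower in MitoPositive. Counts for gene lists below stand beside these backgrounds, and the lists were not tested as sets. Some genes, such as Cd80, Il7r and Btg2, are in more than 1 list, so the counts of different lists are not separate.

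**Figure D1:**
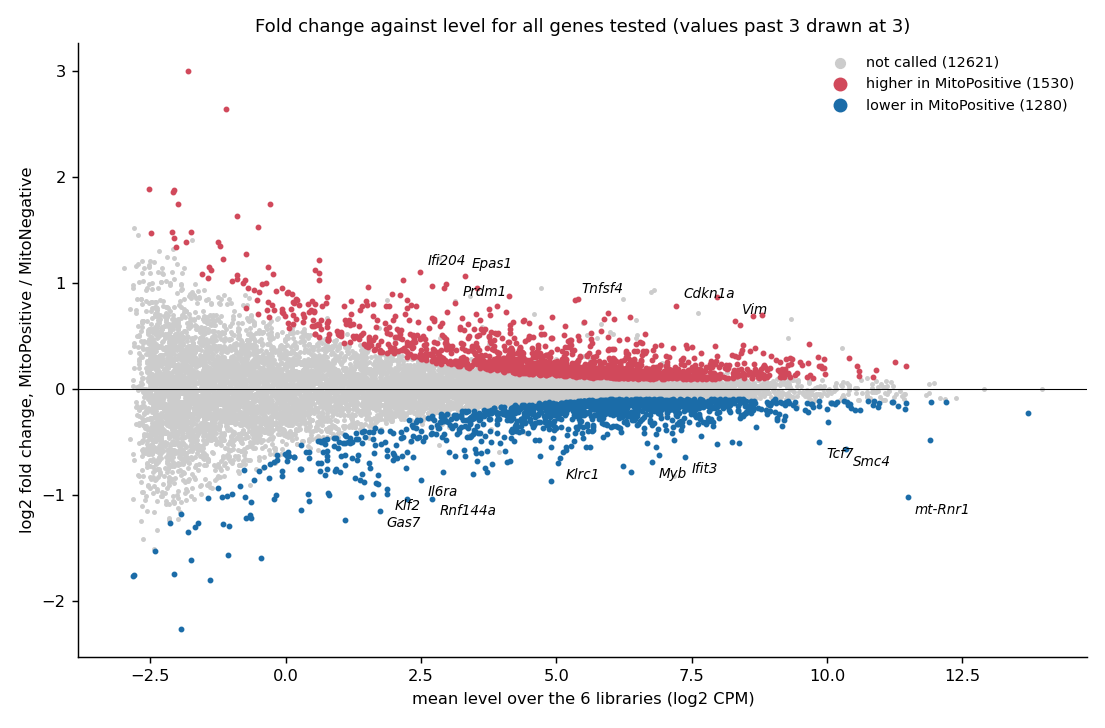
Log2 fold change of MitoPositive over MitoNegative (vertical axis) against the mean level over the 6 libraries in log2 CPM (horizontal axis), 1 point per gene tested. The 1530 genes called higher and 1280 called lower are coloured; mt-Rnr1 stands apart among the most abundant genes.

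Among rises with a mean log2 CPM of at least 1 that were also called with all 9 libraries, the largest were in Ifi204, Epas1, Socs2, Sulf2, Cd200r1, Mgmt, Cox6b2, Ak1, Pde5a, Gzmc, Serpine2 and Zbtb32. Epas1, the hypoxia-inducible factor HIF-2 alpha, was at 12.5, 17.1 and 10.9 CPM in MitoPositive B, C and D and 5.000, 7.23 and 6.96 CPM in MitoNegative B, C and D (1.07 ± 0.13, adjusted p = 9.9e-04). Each MitoPositive library lay above each MitoNegative one. Serpine2, a secreted protease inhibitor, was the most abundant of the 12 at 304, 380.5 and 284 CPM in the MitoPositive and 160.03, 198 and 171 CPM in the MitoNegative libraries (0.87 ± 0.04, adjusted p = 3.7e-08), and its groups stood well apart. Cox6b2, an isoform of a cytochrome c oxidase subunit best known from testis, was at 11.9, 16.6 and 16.96 CPM in the MitoPositive and 4.81, 8.05 and 11.4 CPM in the MitoNegative libraries (0.95 ± 0.14, adjusted p = 0.0073). Ak1, a cytosolic adenylate kinase, was at 4.19, 5.78 and 5.18 CPM in the MitoPositive and 2.14, 2.53 and 3.53 CPM in the MitoNegative libraries (0.89 ± 0.12, adjusted p = 1.8e-04), again without overlap. For Socs2, a suppressor of cytokine signalling, and Zbtb32, a zinc finger repressor, the call ended without pair B (adjusted p = 0.074 and 0.091), although the MitoPositive libraries lay above the MitoNegative ones in both.

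The largest falls by the same rule were in Klre1, Gas7, Cd7, Rnf144a, mt-Rnr1, Klra7, Slc16a5, Klf2, Trpm1, Ntn1, Nebl and Il6ra. Rnf144a, a ubiquitin ligase, was at 3.75, 3.66 and 5.30 CPM in the MitoPositive and 8.47, 8.03 and 9.46 CPM in the MitoNegative libraries (-1.04 ± 0.09, adjusted p = 2.7e-06), and Cd7, a lymphocyte surface glycoprotein, at 2.43, 2.52 and 4.27 CPM in the MitoPositive and 5.48, 5.82 and 7.42 CPM in the MitoNegative libraries (-1.04 ± 0.11, adjusted p = 1.2e-05). Nebl, an actin-binding protein, was at 19.7, 22.9 and 20.2 CPM in the MitoPositive and 37.7, 47.7 and 30.6 CPM in the MitoNegative libraries (-0.87 ± 0.08, adjusted p = 7.3e-04). In these genes the lowest MitoNegative library exceeded the highest MitoPositive one. Slc16a5, a monocarboxylate transporter, was at 1.71, 2.05 and 2.35 CPM in the MitoPositive and 4.03, 4.13 and 3.97 CPM in the MitoNegative libraries (-0.995 ± 0.13, adjusted p = 6.9e-05).

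Transcription factors of naive and memory T cells fell. Of 16 factors tested, 10 fell and 0 rose, with a median log2 fold change of -0.18 against 0.00 over all genes tested. Tcf7, the factor TCF1 that maintains stem-like memory cells, was at 699, 739 and 875 CPM in MitoPositive B, C and D and 1066, 1134 and 1062 CPM in MitoNegative B, C and D (-0.50 ± 0.07, adjusted p = 0.0038). Pair D was the least different, and even there MitoNegative was higher. Myb, which restrains effector differentiation, was at 84.6, 88.99 and 75.6 CPM in the MitoPositive and 134, 151 and 117 CPM in the MitoNegative libraries (-0.69 ± 0.03, adjusted p = 1.0e-08), with no overlap. Klf2, the factor behind expression of homing receptors, was at 1.81, 2.10 and 3.39 CPM in the MitoPositive and 4.16, 5.33 and 4.84 CPM in the MitoNegative libraries (-0.99 ± 0.15, adjusted p = 7.9e-04), whereas monoculture held 71.5 ± 3.56 CPM (SD, n = 3). Id3 was at 15.9, 21.6 and 23.2 CPM in the MitoPositive and 24.97, 31.6 and 27.8 CPM in the MitoNegative libraries (-0.48 ± 0.07, adjusted p = 6.0e-04), and Bcl6, Klf3 and Zfp36l2 fell by smaller amounts. The other falls were in Eomes, which ended without pair B (adjusted p = 0.06), and in Lef1 and Bcl11b, which ended without pair C (0.23 and 0.15). Foxo1, Foxo3, Foxp1, Bach2, Ets1 and Satb1 did not pass. Left-out pairs gave 9, 8 and 11 falls without B, C and D, and all 9 libraries with the pairs gave 5, Tcf7, Myb and Klf2 among them (adjusted p = 0.021, 0.0073 and 0.016).

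Surface proteins of naive cells and their homing receptors moved in part with these factors. Of 22 tested, 13 fell and 4 rose (median -0.24). Il6ra, the receptor chain for interleukin 6 that T cells shed on activation, was at 2.95, 3.23 and 5.77 CPM in the MitoPositive and 5.30, 6.18 and 10.1 CPM in the MitoNegative libraries (-0.86 ± 0.09, adjusted p = 1.2e-05). The groups overlapped because pair D was high in both fractions, while MitoNegative was higher in each pair. S1pr1, the receptor that lets T cells leave lymph nodes, was at 49.4, 51.5 and 60.4 CPM in the MitoPositive and 65.4, 68.3 and 70.6 CPM in the MitoNegative libraries (-0.34 ± 0.04, adjusted p = 3.3e-05). Itga6 fell by 0.46 on the log2 scale. Ccr7, the lymph node chemokine receptor, did not pass. Il7r and Cd55 went the other way: Il7r, the receptor for the survival cytokine interleukin 7, was at 585, 482 and 580.3 CPM in the MitoPositive and 442, 396 and 494 CPM in the MitoNegative libraries (0.31 ± 0.04, adjusted p = 4.5e-05). Genes tied to quiescence gave 10 falls and 0 rises among 24. Pik3ip1, an inhibitor of PI3 kinase, was at 240.4, 229 and 279.6 CPM in the MitoPositive and 359.6, 338 and 361 CPM in the MitoNegative libraries (-0.50 ± 0.04, adjusted p = 4.2e-06); Socs3, Peli1, Zfp36, Dgkz and Btg2 fell by 0.23 to 0.43 on the log2 scale. With all 9 libraries and the pairs, 6 of the homing genes and 5 of the quiescence genes still fell. Of the homing genes 3 rises and 9 falls held, and of the quiescence genes 8 falls held.

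Effector factors showed more rises than falls. Of 27 tested, 13 rose and 5 fell (median 0.21), and 5 rises and 2 falls held. Prdm1, the repressor Blimp-1 that drives terminal effector differentiation, was at 12.7, 11.6 and 9.18 CPM in MitoPositive B, C and D and 6.59, 6.02 and 6.41 CPM in MitoNegative B, C and D (0.81 ± 0.09, adjusted p = 3.0e-05). Each MitoPositive value exceeded each MitoNegative one. Zeb2, a further driver of that state, was at 14.5, 14.3 and 12.8 CPM in the MitoPositive and 9.04, 9.76 and 10.4 CPM in the MitoNegative libraries (0.51 ± 0.07, adjusted p = 2.7e-04). Rbpj, the nuclear partner of Notch, was at 288, 300.3 and 248 CPM in the MitoPositive and 209, 213 and 207 CPM in the MitoNegative libraries (0.41 ± 0.04, adjusted p = 6.0e-05), and Bhlhe40 at 569, 671 and 583 CPM in the MitoPositive and 457, 548 and 521 CPM in the MitoNegative libraries (0.26 ± 0.04, adjusted p = 1.8e-04). Irf8 and Ikzf3 fell (-0.28 ± 0.03 and -0.17 ± 0.03), as did Ikzf2, Stat5a and Stat5b. The call of Stat5a ended without pair B (adjusted p = 0.064) and those of Ikzf2 and Stat5b without pair C (0.22 and 0.2). Without pair B the list held 6 rises and 3 falls, and all 9 libraries with the pairs left 5 and 0.

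Cytokine receptors and costimulatory genes gave more rises than falls. Il2ra, the high-affinity chain of the interleukin 2 receptor, was at 556, 639 and 455 CPM in the MitoPositive and 320.1, 351 and 337 CPM in the MitoNegative libraries (0.70 ± 0.10, adjusted p = 0.027). The groups did not overlap, but the call ended without pair B (adjusted p = 0.093). Il2rb, the signalling chain it pairs with, was at 902, 1009.8 and 874 CPM in the MitoPositive and 630.5, 732 and 716 CPM in the MitoNegative libraries (0.42 ± 0.04, adjusted p = 1.5e-05), and Il12rb2, a chain of the interleukin 12 receptor, at 399, 399 and 391 CPM in the MitoPositive and 289, 291 and 313 CPM in the MitoNegative libraries (0.41 ± 0.04, adjusted p = 2.6e-06). Both kept their call without any one pair. Ifnar2, which binds type I interferon, fell from 119.6, 121 and 113 CPM in MitoNegative to 97.2, 93.4 and 94.5 CPM (-0.31 ± 0.03, adjusted p = 1.5e-05). Across 30 cytokine receptors, 12 rose and 5 fell, and 6 rises and 3 falls held. Of 27 costimulatory and TNF superfamily genes, 11 rose and 3 fell, and 8 rises and 2 falls held. Tnfsf4, the ligand OX40L that binds the costimulatory receptor OX40, was at 49.7, 57.05 and 48.9 CPM in the MitoPositive and 26.6, 31.5 and 29.3 CPM in the MitoNegative libraries (0.83 ± 0.04, adjusted p = 1.0e-08). Cd80, a ligand of Cd28 and Ctla4, was at 43.97, 44.95 and 39.98 CPM in the MitoPositive and 27.9, 29.5 and 27.8 CPM in the MitoNegative libraries (0.59 ± 0.04, adjusted p = 4.0e-07); in both genes the groups stood apart. Icos, Cd28, Tnfrsf4 and Tnfrsf9 rose by 0.28 to 0.40 on the log2 scale.

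Inhibitory receptors split. Of 23 tested, 5 rose and 4 fell, and 4 rises and 3 falls held. Pdcd1, the receptor PD-1, was at 147, 169 and 106 CPM in the MitoPositive and 102, 121 and 90.2 CPM in the MitoNegative libraries (0.41 ± 0.05, adjusted p = 0.0012). MitoPositive D lay below MitoNegative C, so the groups overlapped while each pair rose. Cd200r1 was at 3.64, 5.01 and 2.87 CPM in the MitoPositive and 1.93, 1.998 and 1.89 CPM in the MitoNegative libraries (0.96 ± 0.14, adjusted p = 2.7e-04), and Ctla4 rose by 0.24. Tox, a factor linked to exhaustion, fell from 70.99, 67.5 and 49.99 to 55.1, 53.2 and 46.8 CPM (-0.27 ± 0.05, adjusted p = 0.003); Cd5 and Nt5e (the ectoenzyme CD73) fell as well (-0.33 ± 0.04 and -0.58 ± 0.07).

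Cytotoxic genes moved less uniformly. Gzmb, the main granzyme of CD8 T cells, was at 929, 847 and 616 CPM in the MitoPositive and 571, 431 and 502 CPM in the MitoNegative libraries, higher in each MitoPositive library, yet did not pass (0.66 ± 0.19, adjusted p = 0.19). It passed with pair C or D left out but not without B (adjusted p = 0.44), in fits that lean more on the spread shared across genes. Gzmc, a granzyme of strongly stimulated cells, was at 26.3, 24.9 and 16.97 CPM in the MitoPositive and 12.98, 13.3 and 10.6 CPM in the MitoNegative libraries (0.87 ± 0.06, adjusted p = 8.3e-07), and Nkg7, a granule membrane protein, at 389, 428 and 354 CPM in the MitoPositive and 299.5, 303 and 303 CPM in the MitoNegative libraries (0.37 ± 0.05, adjusted p = 2.7e-04). Of 27 granule genes, 5 rose and 3 fell; 2 rises, Gzmc and Nkg7, held without any one pair. Among 18 cytokines and chemokines, 4 rose and 0 fell (22.2% called, beside 18.2% of all genes), and 0 rises held. The calls of Csf2, Lif and Tnf ended without pair B (adjusted p = 0.11, 0.057 and 0.18).

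**Figure D2:**
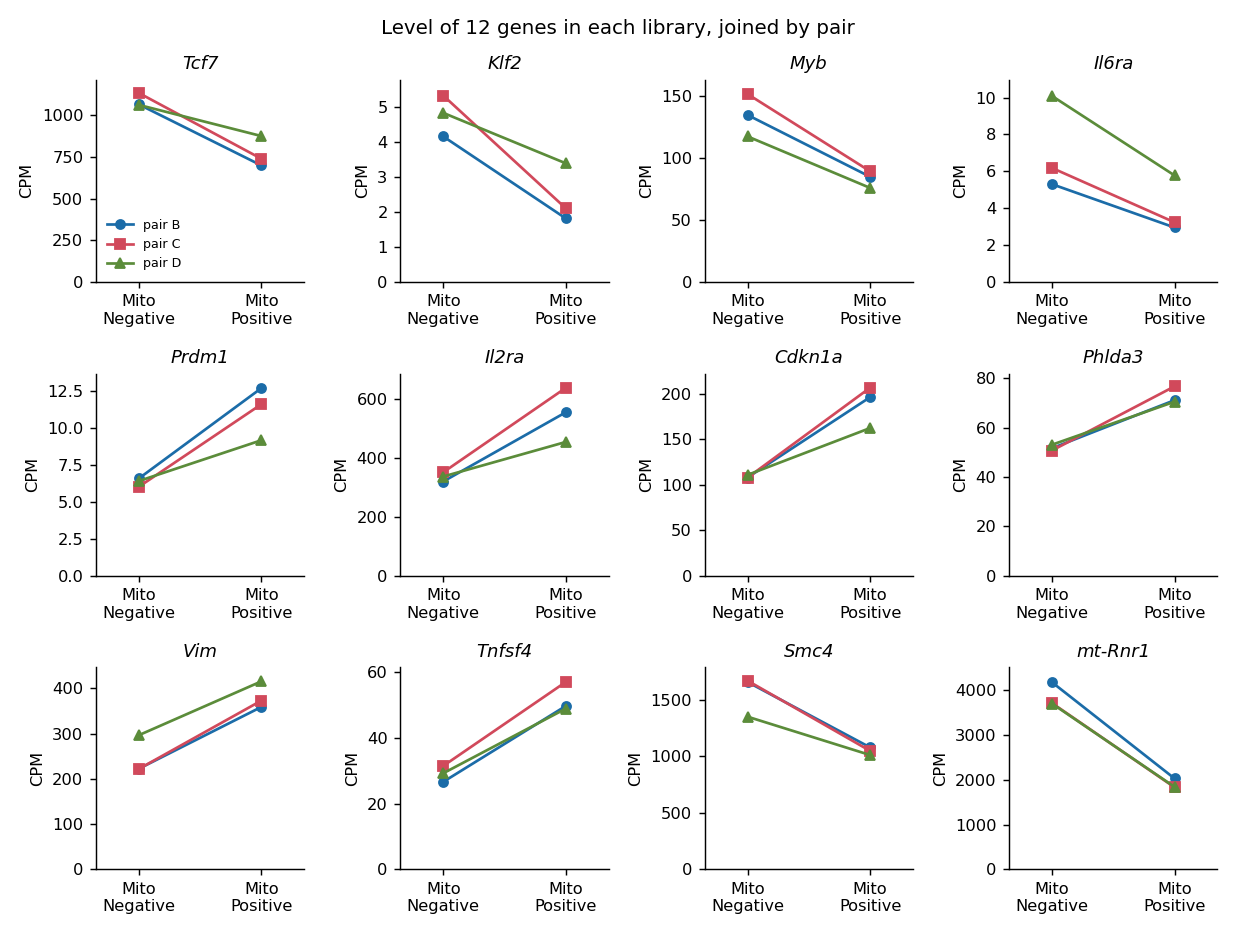
Level in CPM (vertical axis, from 0) of 12 genes in the MitoNegative and MitoPositive libraries, joined by letter. Tcf7, Klf2, Myb, Il6ra, Smc4 and mt-Rnr1 go down in each pair, and Prdm1, Il2ra, Cdkn1a, Phlda3, Vim and Tnfsf4 go up.

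Killer lectin-like receptors fell. These receptors of natural killer and memory CD8 cells read MHC class I and stress ligands. Of 14 tested, 11 fell and 0 rose, with a median of -0.66 and pair medians of -0.61, -0.69 and -0.76 for B, C and D. Klrc1, the inhibitory receptor NKG2A, was at 29.4, 17.01 and 28.6 CPM in MitoPositive B, C and D and 46.4, 27.6 and 47.3 CPM in MitoNegative B, C and D (-0.69 ± 0.04, adjusted p = 5.5e-08). Letter C was low in both fractions, so the groups overlapped, and MitoNegative was higher within each letter. Its partner Klrd1 was at 218, 191 and 225 CPM in the MitoPositive and 271, 247 and 271 CPM in the MitoNegative libraries (-0.32 ± 0.03, adjusted p = 9.7e-06), and the activating receptor Klrk1 at 198, 185 and 161 CPM in the MitoPositive and 247, 219.9 and 185 CPM in the MitoNegative libraries (-0.26 ± 0.03, adjusted p = 6.5e-05). Klre1, Klra6 and Klra7 lay under 4 CPM in the 6 libraries and fell by 1.02 to 1.23 on the log2 scale. Without B, C and D the list held 8, 7 and 8 falls, and 4 with all 9 libraries and the pairs. Klra genes are near-identical copies among which reads can be split. Of the 9 natural killer markers 5 are themselves killer lectin-like receptors, so their falls are not separate from this list. The other 4 summed to 7.196, 9.37 and 8.65 CPM in MitoPositive and to 9.18, 10.4 and 13.9 CPM in MitoNegative, nearly all of it Eomes. Ncr1, Fcgr3 and Tyrobp each lay between 0 and 0.652 CPM in both fractions; the part of other cells in these falls was not tested.

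Interferon-stimulated genes fell in every pair by a similar proportion. Type I interferon signals through a complex that holds Irf9 and binds the interferon-stimulated response element in the promoters of antiviral genes. Of 53 such genes tested, 42 fell and 2 rose (83.00% called), with a median of -0.25 and pair medians of -0.22, -0.29 and -0.23. In 46 of the 53 the MitoPositive library was lower in each of the 3 pairs, beside 24% of all genes tested. Ifit3, an antiviral protein that binds viral RNA, was at 255, 80.1 and 56.7 CPM in MitoPositive B, C and D and 387, 123 and 92.6 CPM in MitoNegative B, C and D (-0.64 ± 0.03, adjusted p = 1.0e-08). Letter B stood far above C and D in both fractions, so MitoPositive B exceeded MitoNegative C and D. Rsad2, the antiviral enzyme viperin, was at 167, 67.4 and 48.8 CPM in the MitoPositive and 248, 104 and 78.1 CPM in the MitoNegative libraries (-0.62 ± 0.03, adjusted p = 1.8e-08), and Cmpk2, its neighbour, at 141, 75.1 and 63.3 CPM in the MitoPositive and 202, 114 and 90.5 CPM in the MitoNegative libraries (-0.54 ± 0.03, adjusted p = 5.5e-08). The order of letters was the same in each. Irf7, which amplifies interferon output, was at 195, 113 and 105 CPM in the MitoPositive and 249, 149 and 138 CPM in the MitoNegative libraries (-0.38 ± 0.03, adjusted p = 1.3e-06).

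Because these groups overlapped, the calls rested on the pairs. With the 6 libraries unpaired, 0 members fell, and with all 9 libraries and the pairs 2 did; there Ifit3 had an adjusted p of 0.39 and Rsad2 of 0.22. Leaving out B, C or D kept 39, 37 and 43 falls. 1 member had every MitoPositive library below every MitoNegative one, beside 9.07% of all genes tested. The 2 members that rose were Ifi204 and Ifi27, whose call ended without pair B or C (adjusted p = 0.14 and 0.27). Ifi204, a nucleic acid sensor, was at 12.8, 5.50 and 4.26 CPM in the MitoPositive and 5.88, 2.33 and 2.25 CPM in the MitoNegative libraries (1.10 ± 0.10, adjusted p = 2.8e-06), highest in letter B in both fractions like the genes that fell. Of 19 guanylate-binding proteins and immunity-related GTPases, which are induced mainly by interferon gamma, 11 fell and 0 rose, and 5 falls held. Gbp10 was at 131, 85.7 and 79.4 CPM in the MitoPositive and 166, 125 and 104 CPM in the MitoNegative libraries (-0.42 ± 0.04, adjusted p = 6.0e-06) and Iigp1 at 141, 105 and 91.01 CPM in the MitoPositive and 182, 148 and 112 CPM in the MitoNegative libraries (-0.39 ± 0.04, adjusted p = 6.8e-06). Ifit3 and Ifit3b, and the Gbp genes, are close copies whose reads can be split.

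Promoters of the 2 interferon genes with the lowest p in the list show the element these genes are known for. Each line gives the 160 bases before the RefSeq transcription start, 5′ to 3′ on the gene's strand (GRCm38.p6), with each match to GAAANNGAAA on either strand in capitals. Ifit3 is at chr19:34583369-34583528, plus strand, and Rsad2 at chr12:26456453-26456612, minus strand.
Ifit3: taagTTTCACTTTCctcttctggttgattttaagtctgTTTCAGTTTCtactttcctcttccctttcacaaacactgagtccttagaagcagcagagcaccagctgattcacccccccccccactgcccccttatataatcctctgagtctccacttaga
Rsad2: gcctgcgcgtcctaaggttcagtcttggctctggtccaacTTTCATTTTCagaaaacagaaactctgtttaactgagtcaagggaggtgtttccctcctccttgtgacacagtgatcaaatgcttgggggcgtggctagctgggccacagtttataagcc
Ifit3 held 2 matches and Rsad2 1. RefSeq windows of 300 bases, from 250 before the start to 50 after it, were found by symbol for 34 of the 42 members that fell, and 20 of them (58.8%) held the motif. Of all 53 members tested, 40 had a window and 21 (52.5%) held it, so falling members differed little from the whole list. The motif stood in 3.89% of the 10354 tested genes with a window and in 3.99% of all 27025 genes with one. A match describes these letters and is not evidence of binding.

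**Figure D3:**
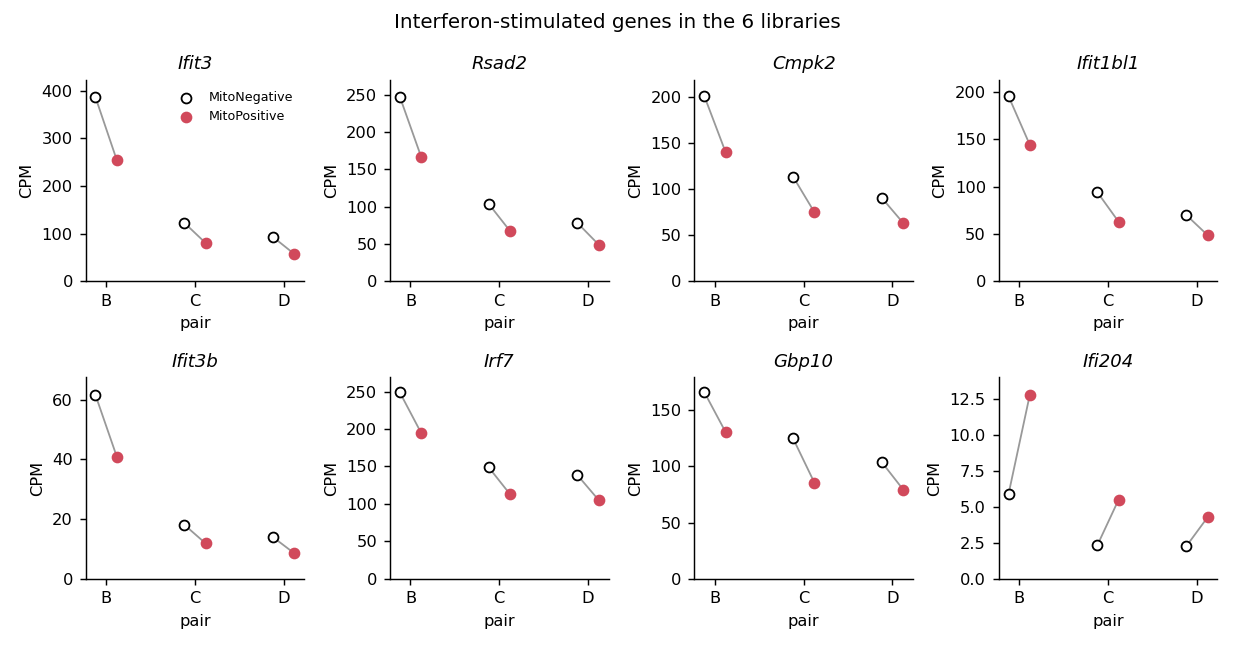
Level in CPM (vertical axis, from 0) of 8 interferon-stimulated genes by letter, MitoNegative in white and MitoPositive in red. In 7 genes MitoPositive is lower within each letter and letter B is highest in both fractions; Ifi204 shows the same order of letters with MitoPositive higher.

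Targets of p53 gave more rises than falls. The tumour suppressor p53 induces arrest, repair and death genes after DNA damage and other stress. Of 44 genes tested in this list, which holds Trp53 as well, 25 rose and 2, Btg2 and Gadd45a, fell (median 0.19). Cdkn1a, the cell cycle inhibitor p21, was at 197, 207 and 163 CPM in MitoPositive B, C and D and 108, 108 and 111 CPM in MitoNegative B, C and D (0.79 ± 0.09, adjusted p = 0.0092). Each MitoPositive library lay above the MitoNegative ones, which were nearly level, and monoculture held 4.65 ± 0.986 CPM. Phlda3, an inhibitor of Akt, was at 71.1, 76.7 and 70.5 CPM in the MitoPositive and 51.6, 50.7 and 53.1 CPM in the MitoNegative libraries (0.49 ± 0.04, adjusted p = 1.2e-06), and Psrc1 at 113, 117 and 120.1 CPM in the MitoPositive and 73.98, 80.3 and 90.5 CPM in the MitoNegative libraries (0.52 ± 0.04, adjusted p = 8.5e-07). Zmat3, an RNA-binding target, was at 104, 105 and 95.4 CPM in the MitoPositive and 74.2, 75.1 and 78.1 CPM in the MitoNegative libraries (0.42 ± 0.04, adjusted p = 9.7e-06), and Sulf2, a heparan sulfatase, at 7.55, 10.2 and 8.14 CPM in the MitoPositive and 3.41, 4.92 and 4.95 CPM in the MitoNegative libraries (0.97 ± 0.09, adjusted p = 6.8e-06). In these 4 genes the groups did not overlap. Over the list, 20 were higher and 3 lower without overlap, beside 11.1% and 9.07% of all genes tested. Bax, a pore-forming death protein, rose by 0.31 ± 0.03, and Ccng1, cyclin G1, was at 702, 702 and 688 CPM in the MitoPositive and 576, 569 and 565 CPM in the MitoNegative libraries (0.29 ± 0.03, adjusted p = 2.5e-05). Trp53 itself, named here after its value was seen, was at 95.1, 101 and 95.2 CPM in the MitoPositive and 96.6, 101 and 95.3 CPM in the MitoNegative libraries and did not pass (-0.00 ± 0.03, adjusted p = 0.94). Leaving out B, C or D kept 20, 18 and 25 rises, and all 9 libraries with the pairs kept 13.

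The BCL2 family included 5 rises and 0 falls among 18: the survival proteins Bcl2, Bcl2l1 and Bcl2a1d and the death proteins Bax and Pmaip1. Bax, Bcl2l1 and Pmaip1 were already counted among the p53 targets. Bcl2l1 was at 38.3, 44.2 and 33.8 CPM in the MitoPositive and 27.3, 34.2 and 28.9 CPM in the MitoNegative libraries (0.36 ± 0.05, adjusted p = 1.4e-04). The calls of Bcl2, Bcl2a1d and Pmaip1 ended without pair C (adjusted p = 0.06, 0.07 and 0.26). Regulators of the G1 phase gave 9 rises and 4 falls among 22, of which 5 rises and 2 falls held. Ccnd2, cyclin D2, was at 1073, 1024 and 909 CPM in the MitoPositive and 871, 802 and 766 CPM in the MitoNegative libraries (0.30 ± 0.04, adjusted p = 3.6e-05), and its kinase Cdk6 at 106, 105 and 90.4 CPM in the MitoPositive and 78.9, 76.5 and 79.1 CPM in the MitoNegative libraries (0.36 ± 0.05, adjusted p = 5.0e-04). Cdkn1b, the inhibitor p27 of resting cells, fell from 256, 235 and 254 to 228, 212 and 223 CPM (-0.17 ± 0.03, adjusted p = 0.0013).

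DNA replication genes gave more rises than falls, and fewer of the mitosis genes were called. Of 47 replication genes, 22 rose and 3 fell (median 0.14). Mcm5 and Mcm6, parts of the helicase that unwinds DNA at origins, were the clearest. Mcm5 was at 43.04, 51.3 and 49.5 CPM in the MitoPositive and 31.9, 44.2 and 41.6 CPM in the MitoNegative libraries (0.30 ± 0.04, adjusted p = 2.8e-04), with overlap because letter B was low in both fractions. Mcm6 was at 122, 127 and 127 CPM in the MitoPositive and 105, 109.7 and 112 CPM in the MitoNegative libraries (0.20 ± 0.03, adjusted p = 3.9e-04), without overlap. Pola1, the catalytic subunit of the priming polymerase, was at 17.1, 19.4 and 20.7 CPM in the MitoPositive and 13.2, 16.7 and 16.4 CPM in the MitoNegative libraries (0.31 ± 0.05, adjusted p = 9.6e-04). E2f2 was among the falls (-0.25 ± 0.04). The list was sensitive to the choice of libraries, with 6 rises without B, 10 without C, 19 without D and 0 with all 9 libraries and the pairs.

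E2F factors switch on replication genes at the start of S phase, and the promoters of these 3 genes carry matches to 1 of the letter strings TTTCCCGC and TTTGGCGC, searched on both strands. The lines give 160 bases before the start as above, matches in capitals. Mcm5 is at chr8:75109349-75109508, plus strand, Mcm6 at chr1:128359706-128359865, minus strand, and Pola1 at chrX:93632156-93632315, minus strand.
Mcm5: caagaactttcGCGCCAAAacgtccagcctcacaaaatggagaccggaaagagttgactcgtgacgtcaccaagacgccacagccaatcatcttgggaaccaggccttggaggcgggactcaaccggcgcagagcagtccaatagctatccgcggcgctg
Mcm6: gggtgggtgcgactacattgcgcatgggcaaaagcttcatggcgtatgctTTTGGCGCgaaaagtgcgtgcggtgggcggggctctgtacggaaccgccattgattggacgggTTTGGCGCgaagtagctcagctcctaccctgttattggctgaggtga
Pola1: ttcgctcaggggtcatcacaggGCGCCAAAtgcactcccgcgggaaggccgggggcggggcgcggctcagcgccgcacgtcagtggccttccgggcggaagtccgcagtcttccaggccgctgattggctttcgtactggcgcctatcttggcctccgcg
Matches were present in the windows of 6 of 19 rising replication genes that had one (31.6%), beside 3.4% of tested genes. The 3 promoters shown are among those 6, so they do not stand for the rising genes as a whole. Of all 47 members, rising or not, 37 had a window and 13 (35.1%) held a match, so rising members did not stand out within the list.

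Mitosis genes numbered 48, of which 6 fell and 0 rose, a share of 12.5% below the 18.2% of all genes. Their pair medians were -0.21, -0.40 and 0.04 for B, C and D, and without pair D the falls numbered 25. Cenpa, the centromeric histone, was at 20.9, 24.96 and 31.3 CPM in the MitoPositive and 29.3, 36.1 and 40.8 CPM in the MitoNegative libraries (-0.46 ± 0.04, adjusted p = 6.0e-06), and Cdc25b, a phosphatase that starts mitosis, at 10.7, 12.8 and 22.1 CPM in the MitoPositive and 16.4, 19.3 and 25.6 CPM in the MitoNegative libraries (-0.46 ± 0.08, adjusted p = 0.0019). Letter D was highest in both fractions for each. Smc4, a condensin subunit, was at 1079.7, 1049 and 1012 CPM in the MitoPositive and 1659, 1671 and 1352 CPM in the MitoNegative libraries (-0.57 ± 0.05, adjusted p = 5.1e-06), and monoculture held 2354 ± 177 CPM. It was the largest of 5 falls among 25 condensin and cohesin genes, none of which rose. That called share was near the 18.2% of all genes, and the list median was -0.0068. Pair medians were 0.0059, -0.0571 and 0.0315 for B, C and D, without a common sign, so the list as a whole did not fall. Smc3, Smc6, Stag1 and Ctcf fell by 0.13 to 0.17, and the calls of Smc3, Stag1 and Ctcf ended without pair B (adjusted p = 0.063, 0.17 and 0.14).

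Myc and ribosome biogenesis genes gave more rises than falls, and ribosomal proteins more falls than rises. Myc, which drives ribosome production, was at 167, 192 and 173 CPM in the MitoPositive and 134, 149 and 152 CPM in the MitoNegative libraries (0.29 ± 0.04, adjusted p = 7.2e-05), and 21 of 39 Myc and ribosome biogenesis genes rose while 3 fell. Nhp2 and Dkc1, which modify ribosomal RNA, rose by 0.25 ± 0.03 and 0.19 ± 0.03, and Cad, the enzyme that starts pyrimidine synthesis, by 0.21 ± 0.03. 8 of these rises held and 2 with all 9 libraries and the pairs. Of the ribosomal proteins, 20 of 81 fell and 3 rose. That count was 39 falls without pair D, 0 without B and 1 without C. The p53 target Rps27l rose from 77.7, 76.3 and 72.9 to 96.5, 105 and 90.4 CPM (0.36 ± 0.04, adjusted p = 9.7e-06). Of 48 proteasome genes, 12 rose and 4 fell; 0 rises held.

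**Figure D4:**
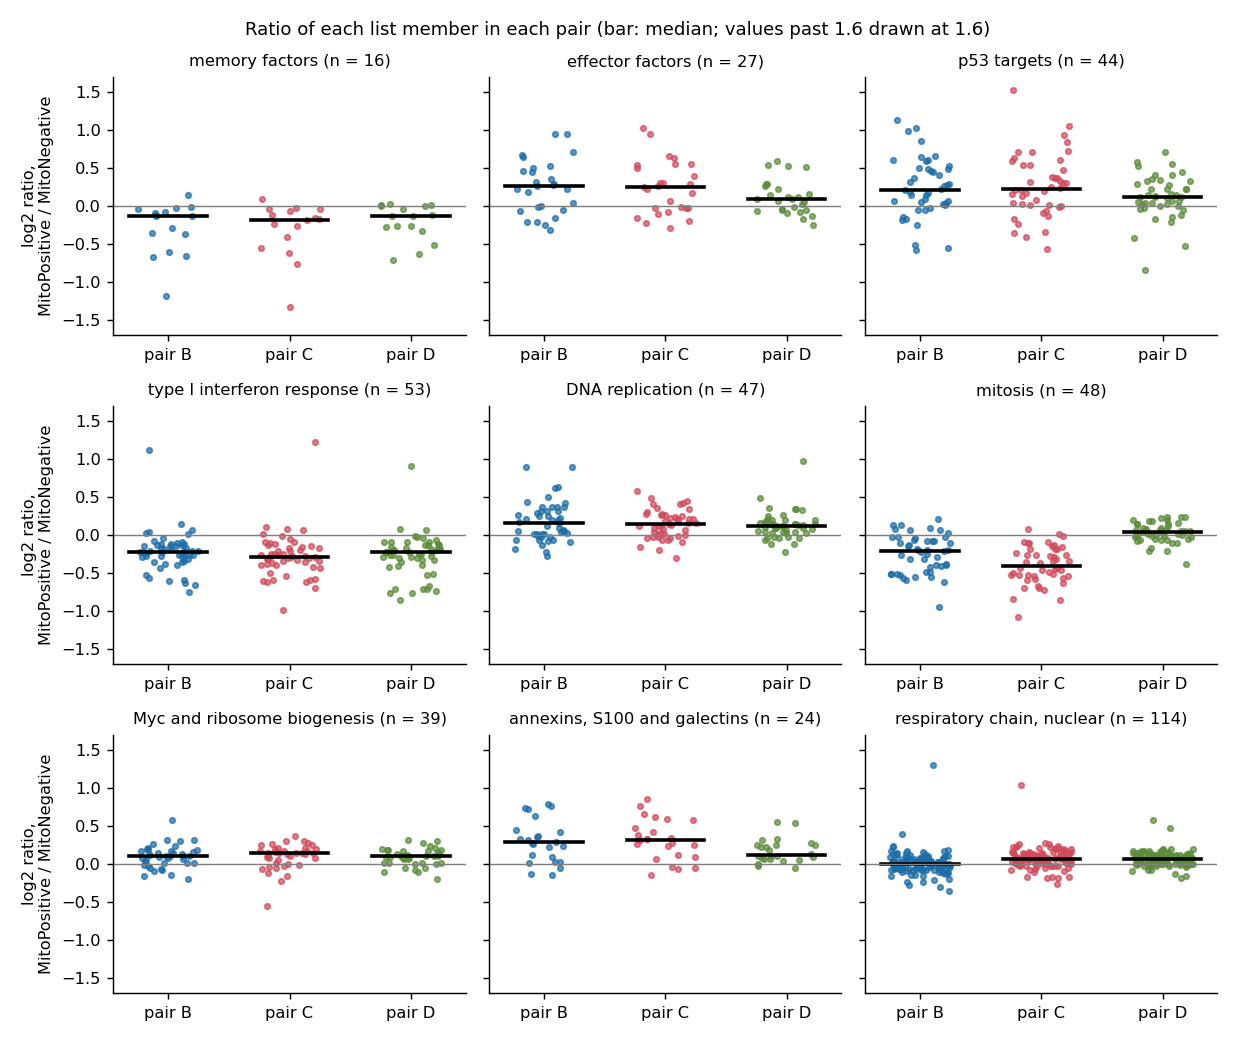
Log2 ratio of MitoPositive over MitoNegative (vertical axis) for each tested member of 9 gene lists in pairs B, C and D, with the median as a bar. Medians of memory factors and interferon genes are below 0 and those of p53 targets above 0 in each pair, while the mitosis median is -0.40 in pair C and 0.04 in pair D.

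Ribosomal RNA of mitochondria was the clearest mitochondrial difference. mt-Rnr1, the 12S RNA of the small mitochondrial ribosomal subunit, was at 2026, 1829 and 1838 CPM in MitoPositive B, C and D and 4171, 3707 and 3697 CPM in MitoNegative B, C and D (-1.02 ± 0.04, adjusted p = 2.1e-10). The MitoPositive values lay at about the same level as one another and far below every MitoNegative one. mt-Rnr2, the 16S RNA, was at 3281, 2767 and 3515 CPM in the MitoPositive and 4299, 4303 and 4691 CPM in the MitoNegative libraries (-0.48 ± 0.05, adjusted p = 1.6e-05). Together these RNAs took 0.532, 0.457 and 0.543% of counts in MitoPositive and 0.835, 0.788 and 0.853% in MitoNegative (exact permutation p = 0.1, adjusted 0.28 over 14 such sums). Monoculture held 0.224% ± 0.0192 (SD, n = 3), less than either fraction. The libraries were depleted of ribosomal RNA, so these levels are what depletion left. Messenger RNAs of the mitochondrial genome moved less: of 13 tested, 2, mt-Co1 and mt-Nd1, fell and none rose. mt-Co1, a core subunit of cytochrome c oxidase, was at 12253, 11187 and 13875 CPM in the MitoPositive and 13758, 14616 and 15071 CPM in the MitoNegative libraries (-0.22 ± 0.05, adjusted p = 0.0066); the calls of mt-Co1 and mt-Nd1 ended without pair C (adjusted p = 0.49 and 0.44).

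The called share of nuclear genes for mitochondria stayed close to the background. In the respiratory chain, mitochondrial ribosome and import lists rises outnumbered falls, beside 9.92% of all genes higher and 8.29% lower. Of 114 nuclear respiratory chain genes, 18 rose and 4 fell (19.3% called), and of 81 mitochondrial ribosome genes 9 rose and 3 fell (14.8%), beside 18.2% of all genes. In the respiratory chain 4 rises and 1 fall held, and in the mitochondrial ribosome 2 rises and 0 falls held. MitoPositive was higher in each of the 3 pairs in 50 of the 114 and 36 of the 81, beside 26.5% of all genes tested. It was lower in each pair in 9 and 7, beside 24% of all genes tested. Cycs, cytochrome c, rose by 0.22 ± 0.03, and Cox7a2l, a factor of respiratory supercomplexes, fell by 0.20. Import and protease genes gave 11 rises and 0 falls among 46 (23.9% called), and 23 were higher and 4 lower in each of the 3 pairs. The rises were led by Pmpca, the subunit of the peptidase that trims imported proteins (0.18 ± 0.03, adjusted p = 0.0014), and 1 of them held. Tfam, which packages mitochondrial DNA, was at 70.5, 62.6 and 64.4 CPM in the MitoPositive and 78.4, 68.2 and 67.5 CPM in the MitoNegative libraries (-0.11 ± 0.03, adjusted p = 0.025), a call that ended without pair B or C (0.16 and 0.2). Rhot1, the adaptor Miro1 that couples mitochondria to motors, was at 48.3, 46.8 and 47.99 CPM in the MitoPositive and 48.9, 45.5 and 47.4 CPM in the MitoNegative libraries and did not pass (0.01 ± 0.04, adjusted p = 0.87). Among 35 mitophagy and autophagy genes 6 fell and 0 rose (17.1% called, near the 18.2% of all genes). Pink1 and Map1lc3b fell by 0.15 and 0.12. Of the 6 falls 0 held, and both named calls ended without pair B (adjusted p = 0.1 and 0.087).

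Glucose metabolism changed at single genes. Hk2, the hexokinase induced in activated T cells, was at 74.7, 84.2 and 57.5 CPM in the MitoPositive and 44.3, 48.6 and 42.8 CPM in the MitoNegative libraries (0.66 ± 0.08, adjusted p = 0.003), and each MitoPositive library was higher. Slc2a1 and Slc2a3, glucose transporters, rose by 0.25 ± 0.04 and 0.20 ± 0.04, and Pdk1, which holds back pyruvate oxidation, fell by 0.17, a call that ended without pair B or C (adjusted p = 0.062 and 0.096). In all, 8 of 31 glycolysis genes rose and 5 fell, and 4 rises and 0 falls held. Of 33 citric acid cycle genes 6 rose and 1, Idh2, fell (-0.25 ± 0.04, adjusted p = 4.7e-04). That was 21.2% called, near the 18.2% of all genes, and 0 rises and 1 fall held. Fatty acid oxidation and PPAR genes gave 5 rises and 0 falls among 34 (14.7% called, below the 18.2% of all genes), and 3 rises held. Pparg, a nuclear receptor of lipid metabolism, was below 1 CPM throughout, at 0.774, 0.995 and 0.547 CPM in the MitoPositive and 0.120, 0.158 and 0.0893 CPM in the MitoNegative libraries (2.64 ± 0.32, adjusted p = 4.3e-05). Acadvl, the first enzyme of long-chain oxidation, was at 122, 124 and 123 CPM in the MitoPositive and 104, 108 and 108 CPM in the MitoNegative libraries (0.21 ± 0.03, adjusted p = 2.8e-04).

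Stress programmes rose in parts. Of 37 genes of the unfolded protein response 14 rose and 1 fell, led by Hsp90b1, a chaperone of the endoplasmic reticulum, at 554, 496 and 465 CPM in the MitoPositive and 422, 388 and 387 CPM in the MitoNegative libraries (0.34 ± 0.03, adjusted p = 1.1e-05); 5 rises held. Of 30 hypoxia genes 11 rose and 4 fell (9 rises and 1 fall held), with Plod2 and Fam162a up by 0.38 ± 0.05 and 0.31 ± 0.04. Among 38 ATF4 targets, which supply amino acids under stress, 11 rose and 3 fell, and 4 rises and 2 falls held. Asns and Psat1, for asparagine and serine synthesis, rose by 0.26 ± 0.04 and 0.25 ± 0.04, whereas Ddit3, the death-linked factor CHOP, fell from 66.1, 56.9 and 48.2 to 49.7, 46.2 and 38.6 CPM (-0.35 ± 0.04, adjusted p = 1.5e-05). Antioxidant genes under NRF2 gave 7 falls and 4 rises among 33, of which 1 rise and 3 falls held; Nfe2l2, which encodes NRF2, fell by 0.28 and Ftl1, ferritin light chain, by 0.36. With all 9 libraries and the pairs Asns and Psat1 did not pass (adjusted p = 0.47 and 0.37). Cholesterol and fatty acid synthesis held 5 rises and 7 falls among 44, of which 2 rises and 3 falls held.

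Feedback genes of receptor signalling were mixed. Of 26 ERK feedback genes 9 rose and 4 fell, and 5 rises and 2 falls held. Dusp5, a phosphatase that silences nuclear ERK, was at 63.2, 68.1 and 46.97 CPM in the MitoPositive and 41.6, 43.7 and 37.7 CPM in the MitoNegative libraries (0.52 ± 0.06, adjusted p = 3.6e-04), and Rgs2, which restrains G-protein signals, at 19.6, 25.3 and 20.6 CPM in the MitoPositive and 14.00, 17.7 and 15.3 CPM in the MitoNegative libraries (0.48 ± 0.05, adjusted p = 1.2e-05). Rgs10 fell from 45.6, 44.4 and 49.9 to 32.2, 32.7 and 40.1 CPM (-0.42 ± 0.04, adjusted p = 9.8e-06). Of 36 T-cell receptor signalling genes 6 rose and 6 fell, and 0 held without any one pair. Among 27 NF-kappaB genes 6 fell and 2 rose (1 rise and 4 falls held); Rel, the subunit activated by the T-cell receptor, was at 63.1, 69.6 and 56.7 CPM in the MitoPositive and 82.3, 88.5 and 73.9 CPM in the MitoNegative libraries (-0.37 ± 0.03, adjusted p = 2.7e-06), and its feedback inhibitor Tnip3 rose by 0.45 ± 0.04. Chemokine receptors gave 9 rises and 6 falls among 23 (4 rises and 2 falls held), with Ccr4, a receptor for entry into skin and inflamed tissue, at 12.9, 15.7 and 14.03 CPM in the MitoPositive and 7.95, 8.21 and 9.92 CPM in the MitoNegative libraries (0.71 ± 0.08, adjusted p = 3.2e-05).

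Annexins, S100 proteins, galectins and cytoskeleton genes gave more rises than falls. Of 24 annexins, S100 proteins and galectins 14 rose and 0 fell (median 0.28), and 12 rises held. S100a6 was at 60.2, 84.7 and 85.4 CPM in MitoPositive B, C and D and 35.6, 46.7 and 58.4 CPM in MitoNegative B, C and D (0.72 ± 0.05, adjusted p = 2.8e-05). Each MitoPositive library was the higher of its pair and the groups did not overlap. Its relative S100a10 was at 478, 473 and 436 CPM in the MitoPositive and 369, 340.02 and 351 CPM in the MitoNegative libraries (0.39 ± 0.04, adjusted p = 4.9e-06), and Lgals1, galectin 1, at 304, 373 and 333 CPM in the MitoPositive and 243, 287 and 281 CPM in the MitoNegative libraries (0.32 ± 0.03, adjusted p = 1.4e-05). With all 9 libraries and the pairs 3 rises were left; S100a6 and Lgals1 were not among them (adjusted p = 0.14 and 0.19). Of 56 cytoskeleton and nanotube genes 21 rose and 5 fell (median 0.09), and 9 rises and 4 falls held. Vim, the intermediate filament vimentin, was at 359, 373 and 416 CPM in the MitoPositive and 223, 222 and 297 CPM in the MitoNegative libraries (0.64 ± 0.05, adjusted p = 6.0e-06), with no overlap. Myo10, the motor that builds filopodia, was at 24.3, 34.6 and 24.1 CPM in the MitoPositive and 15.5, 18.7 and 19.4 CPM in the MitoNegative libraries (0.62 ± 0.11, adjusted p = 0.024), and its call ended without pair B (adjusted p = 0.15). Exoc4, a subunit of the exocyst that delivers membrane to growing protrusions, was at 255, 295 and 285 CPM in the MitoPositive and 218, 230.4 and 225 CPM in the MitoNegative libraries (0.31 ± 0.03, adjusted p = 1.6e-05), and Coro7 fell by 0.34. Stromal cells also express vimentin. The summed stromal markers given above were lower in MitoPositive than in MitoNegative in each pair, and the part of stromal RNA in the vimentin level was not tested. Col1a1, the main fibroblast collagen, was at 3.88, 6.55 and 2.55 CPM in the MitoPositive and 4.94, 6.08 and 2.26 CPM in the MitoNegative libraries (-0.03 ± 0.12, adjusted p = 0.88).

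Adhesion molecules changed in both directions. Among 34 genes 8 rose and 6 fell, and 3 rises and 5 falls held. Itgal, the LFA-1 chain that binds ICAM-1 on partner cells, was at 1055, 1089 and 1109 CPM in the MitoPositive and 865, 880.1 and 939 CPM in the MitoNegative libraries (0.28 ± 0.03, adjusted p = 5.8e-05), and Itgb1 rose by 0.24 ± 0.03. Alcam rose and its receptor Cd6 fell. Alcam was at 20.8, 21.6 and 18.5 CPM in the MitoPositive and 15.6, 15.7 and 15.2 CPM in the MitoNegative libraries (0.39 ± 0.05, adjusted p = 1.5e-04). Cd6 was at 170.01, 174 and 179 CPM in the MitoPositive and 214, 209.7 and 204 CPM in the MitoNegative libraries (-0.27 ± 0.03, adjusted p = 5.7e-05). Slamf7, a receptor of activated lymphocytes, was at 85.9, 89.1 and 73.8 CPM in the MitoPositive and 60.3, 60.97 and 58.7 CPM in the MitoNegative libraries (0.46 ± 0.04, adjusted p = 6.4e-06), while Slamf6, which marks stem-like cells, was at 47.5, 48.7 and 57.3 CPM in the MitoPositive and 60.4, 68.00 and 63.5 CPM in the MitoNegative libraries (-0.32 ± 0.06, adjusted p = 0.005) and lost its call without pair B (adjusted p = 0.083). The B-cell gene Ighm was at 262, 279 and 279 CPM in the MitoPositive and 403, 426 and 341 CPM in the MitoNegative libraries (-0.51 ± 0.07, adjusted p = 0.0073), lower in each pair.

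**Figure D5:**
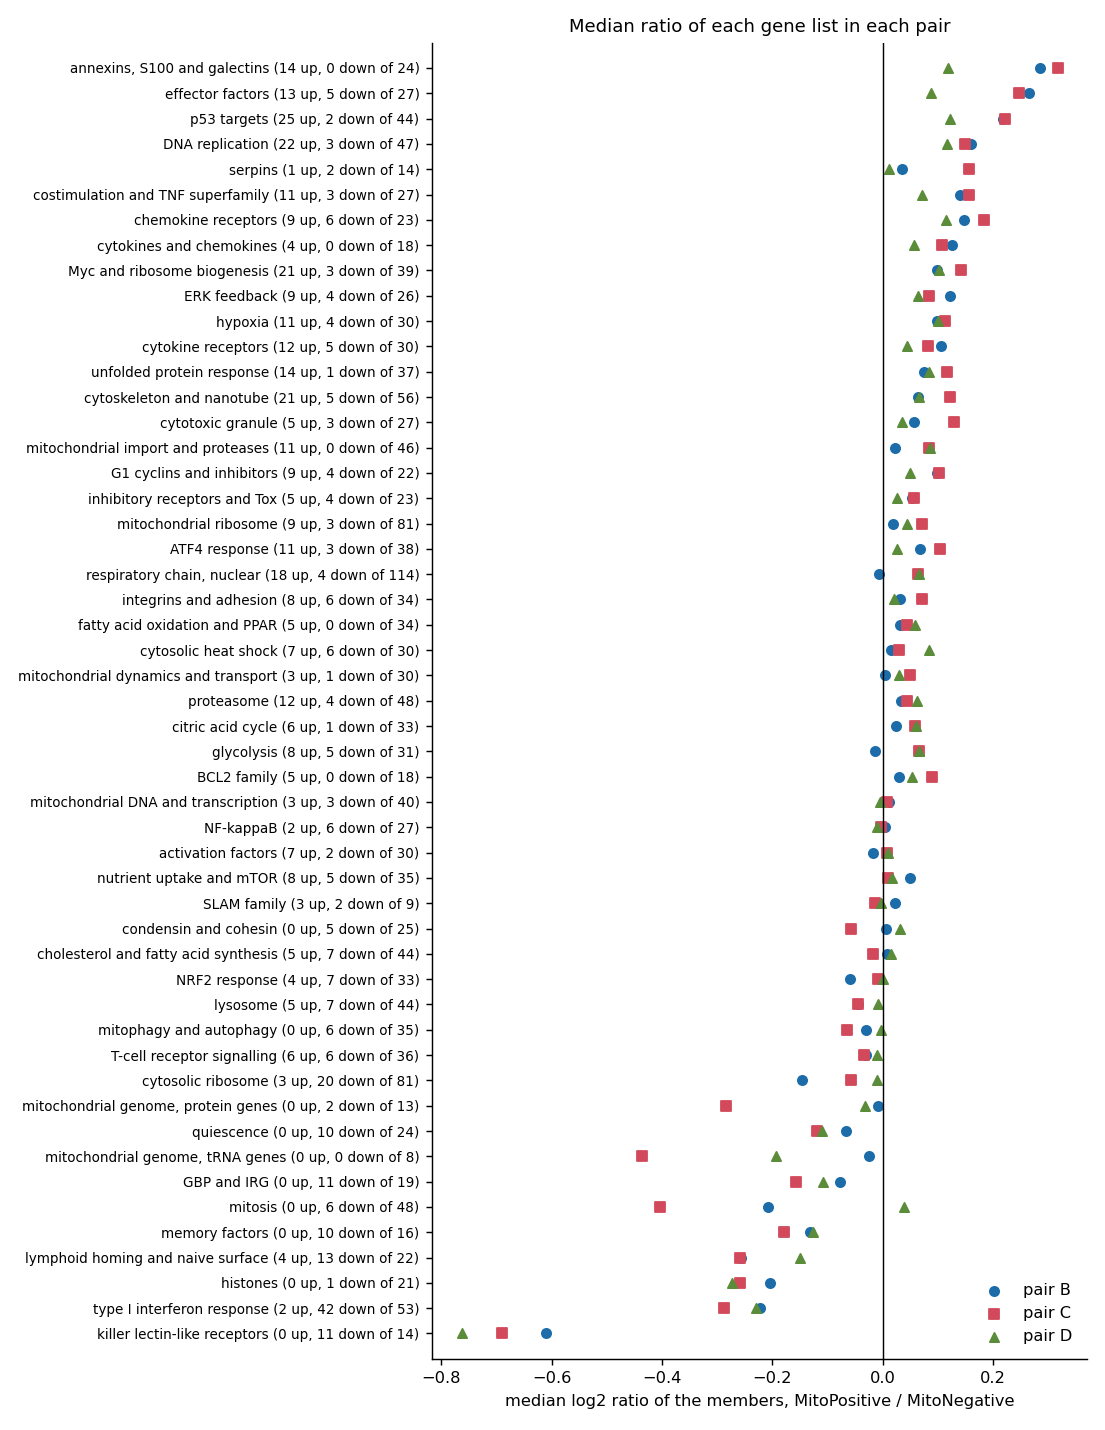
Median log2 ratio of MitoPositive over MitoNegative (horizontal axis) of the members of each gene list in pairs B, C and D, with the numbers of members called higher and lower beside its name. Killer lectin-like receptors lie lowest, below -0.6 in each pair, and annexins, S100 proteins and galectins lie highest by the median over all members.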

How the data were processed

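RNA was measured in 9 libraries, of which 6 were compared. Raw counts per gene were deposited by the authors; tools named in the submitters' processing notes are STAR 2.7, featureCounts, cutadapt, bcl2fastq and DESeq2, with GRCm38 as the build. Whether counting used strand is not given in the labels, so reads of a gene and of an overlapping antisense gene may be mixed. Of 55520 entries, 99 spike-ins with 0 counts were left out.

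Counts were tested in R 4.3.3 with edgeR 4.0.16 (robust quasi-likelihood, TMM scaling, filterByExpr at a count of 10 and a total of 15), the letter as a block and 2 residual degrees of freedom. P-values were adjusted by Benjamini-Hochberg over 15431 genes, with a threshold of 0.05. The labels do not say that letters are animals or cultures. Same-letter residuals correlated at 0.425, 0.361 and 0.484 for B, C and D, and letters were taken as pairs. Unlike letters gave -0.421 to -0.0203. Residuals were centred within each fraction, which pushes unlike letters below 0 when same-letter values are positive. The values of unlike letters are therefore not separate support. P-values of this test rest on the spread between these libraries, which may be technical, and on spread shared across genes. Replicates differed beyond sampling noise (chi-square per degree of freedom 17.7 to 62.4). Leaving out 1 library of a pair leaves out the pair.

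The 51 programme lists and 8 marker lists, and the members named, were chosen with earlier results of these data known. Named were the largest changes, at most 12 in each direction, that also passed with all 9 libraries and the pairs, with mean log2 CPM no lower than 1, an assigned symbol and the same sign in 3 pairs; up to 6 passing members of each list by p; and a fixed panel. Other members, named to complete a list's count, were chosen after their values were seen. Marker sums use CPM scaled over all 9 libraries. Scripts were tested on simulated counts. Alternatives were another scale, test, filter, set of libraries or fold, with limma 3.58.1 and DESeq2 1.42.0 as further tools. Promoters were RefSeq windows on GRCm38.p6. Values of some genes are not reported here.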

Additional observations from a re-analysis of the deposited data

How the results depend on the processing

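The number of called genes followed the pairing, the libraries fitted and the test. It was 367 (198 higher, 169 lower) with all 9 libraries and the replicate block, 65 (37 and 28) without the replicate block in the 6 libraries, and 26 (14 and 12) without it in all 9. DESeq2's own test called 1735 genes, 862 of them higher, and the test against a fold of 1.2 called 201 (108 and 93). Leaving out 1 pair gave 1335 to 3197 genes, with 692 to 1597 higher and 643 to 1600 lower. Other scales, limma voom, no filter or a stricter filter gave 2742 to 3121 genes, and quasi-likelihood without edgeR's legacy setting, chosen after seeing the data, gave 2731; the legacy setting planned as an alternative was the fit used. Total counts as the scale shifted the median log2 fold change of all genes from 0.0039 to 0.016. Of 304 named genes that were called, 113 kept their call with all 9 libraries and the block, 35 without the block in the 6 libraries, 17 without it in all 9 and 70 against a fold of 1.2. Without B, C and D, 232, 226 and 294 kept it, and none reversed under any of these alternatives. With 1 pair left out, 5 values that were not called changed sign. The log2 fold change of Col1a1 ranged from -0.12 to 0.13 and that of Rhot1 from -0.0041 to 0.027. The difference in dendritic and class II markers ranged from -7.82 to 2.01 CPM, or from -7.04 to 3.70 CPM leaving out genes of the T-cell lists, and that in erythroid markers from -0.00353 to 0.24 CPM. Chosen after seeing the data, the difference in B-cell markers without Ighm was -4.48 CPM (-121.6 with it), and that in natural killer markers without killer lectin-like receptors was -2.73 CPM (-40.9 with them). The cause was not tested. Depth limits genes under about 1 CPM, such as Pparg.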
